A study of Homo sapiens with 6 samples.

Results

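The ZFP36 family comprises ZFP36, ZFP36L1 and ZFP36L2, which are 3 of the 20163 protein-coding genes annotated in GENCODE release 44 on GRCh37 (hg19). Binding of DEK, a chromatin protein, was measured around them by chromatin immunoprecipitation and sequencing (ChIP-seq) in U937, a human myeloid cell line. The 6 samples, all of U937 cells grown in the same medium with no treatment named, were 2 precipitations with an antibody against DEK, 2 with an antibody against H3K4me3, the histone H3 lysine methylation mark of active promoters, and 2 of non-precipitated chromatin (input). The peak lists of the DEK and H3K4me3 samples were used, and with no treated or depleted cells in the series there was no comparison between conditions.

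The windows were the gene body with 50 kb on each side for ZFP36 and ZFP36L1, and for ZFP36L2 the whole of chr2:43000000-44000000. They held 21 of the 15017 DEK peaks of precipitation 1, 133 of the 152779 peaks of precipitation 2, and 14 of the 4453 shared intervals, a shared interval being the stretch where a peak of one precipitation overlapped a peak of the other. ZFP36 had 2 of these intervals, ZFP36L1 had 1 and ZFP36L2 had 11. The genes, and the wider window of ZFP36L2, were selected on the number and position of their DEK peaks in these same lists. The peak counts, positions, tags and sharing that follow are therefore a description, with no test. The H3K4me3 lists were not used in the choice.

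The proteins of the family carry paired CCCH zinc fingers that bind AU-rich elements (AREs) in mRNA. Bound to such an mRNA, they recruit the CCR4-NOT deadenylase, and the message is then decapped or degraded by the RNA exosome. ZFP36, also called tristetraprolin, is known in myeloid cells for limiting the mRNA of TNF and other inflammatory mediators, and its activity is controlled by the p38 MAPK and MAPKAPK2 kinases and by 14-3-3 proteins. ZFP36L1 and ZFP36L2 are best known for roles in lymphocyte and blood cell development.

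The sequences upstream of the start sites of ZFP36 and ZFP36L2 are shown because both sites lay inside a shared DEK interval. Each is the 250 bases before the canonical start site on the strand of the gene, in GRCh37, with matches to GGGCGG or its reverse complement CCGCCC, the core of the SP1 site, in capitals.
ZFP36, chr19:39897237-39897486, plus strand: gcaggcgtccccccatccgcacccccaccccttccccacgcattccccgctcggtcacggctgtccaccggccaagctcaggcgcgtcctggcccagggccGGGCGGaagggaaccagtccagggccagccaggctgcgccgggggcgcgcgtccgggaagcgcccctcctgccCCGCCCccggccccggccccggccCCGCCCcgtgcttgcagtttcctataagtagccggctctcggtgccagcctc
ZFP36L2, chr2:43453746-43453995, minus strand: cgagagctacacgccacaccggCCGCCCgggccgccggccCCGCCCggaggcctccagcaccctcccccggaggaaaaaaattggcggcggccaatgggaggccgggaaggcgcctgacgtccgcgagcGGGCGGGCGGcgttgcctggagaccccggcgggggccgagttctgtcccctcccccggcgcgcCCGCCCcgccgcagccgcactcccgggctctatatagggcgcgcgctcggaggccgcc
The canonical start site of ZFP36 followed 3 such matches and that of ZFP36L2 followed 5, while the same 250 bases of ZFP36L1 had none. Those bases of ZFP36L1 overlap an untranslated region of another annotated transcript, so they are not printed. Other annotated start sites of ZFP36L1 lie farther upstream, and the sequence before those was not searched. Of the 20140 promoters of protein-coding genes searched, 58.6% held at least 1. GC content was 76.4% for ZFP36 and 78.0% for ZFP36L2, the 88.8th and 92.1st percentiles of these promoters, and 52.4% for ZFP36L1, the 22.6th percentile. The median was 63.2%.

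In 3 of the 14 shared intervals the peak summits, the positions of highest tag density, lay within 100 bp of each other in the 2 precipitations. They are the places where the 2 precipitations were closest in summit position, whatever the strength of the peaks. For each, 101 bases around the summits are shown on the plus strand, with the stretch from one summit to the other in capitals. The first lies between RPS16 and SUPT5H in the ZFP36 window, and the others lie downstream of ZFP36L2.
RPS16 and SUPT5H start region, chr19:39926671-39926771: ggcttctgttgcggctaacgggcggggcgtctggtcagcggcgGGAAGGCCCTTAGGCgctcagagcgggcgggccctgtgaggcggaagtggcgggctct
Shared interval downstream of ZFP36L2, chr2:43355075-43355175: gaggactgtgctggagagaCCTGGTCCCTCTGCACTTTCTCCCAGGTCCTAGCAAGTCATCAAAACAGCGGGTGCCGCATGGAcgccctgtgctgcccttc
Shared interval downstream of ZFP36L2, chr2:43358475-43358575: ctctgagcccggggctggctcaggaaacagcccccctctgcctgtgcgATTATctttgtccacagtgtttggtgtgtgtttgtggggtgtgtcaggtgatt
The only shared interval near ZFP36L1 is shown by the 101 bases at its middle, in lower case throughout.
Shared interval near ZFP36L1, chr14:69208811-69208911: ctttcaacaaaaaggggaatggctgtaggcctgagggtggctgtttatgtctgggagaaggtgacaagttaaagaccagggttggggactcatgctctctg

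The DEK lists differed in size. Precipitation 1 had 988363 tags in peaks and precipitation 2 had 4172422, with a median of 47 and 20 tags per peak, where a tag is a sequenced read placed in the peak. Tags summed over called peaks follow the number of peaks called, and the sequencing depth of the libraries is unknown. MACS, the peak caller, gave every peak of precipitation 1 a false discovery rate of 100%, and gave the peaks of precipitation 2 between 0.74% and 16.67%. Each value is therefore given for both precipitations. In precipitation 1, 27.4% of all peaks overlapped a peak of the other precipitation, and in precipitation 2, 2.9% did so.

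ZFP36 (ENSG00000128016, chr19:39897487-39900052, plus strand) was covered by DEK over most of its short gene body. The precipitation 1 peak, chr19:39897438-39901114, had 190 tags, spanned the whole gene and reached 1062 bp beyond its end. The precipitation 2 peak, chr19:39897436-39899349, had 65 tags. Their shared interval of 1912 bp began 49 bp before the start site and covered 72.6% of the gene, including coding sequence. Summits in the 2 precipitations lay 2441 bp apart, so the peaks overlapped without pointing to the same position. The precipitation 2 summit, at position 39897693, was inside the gene near its start site. The precipitation 1 summit, at position 39900134, lay beyond the 3′ end of the gene and outside the shared interval. The MACS score, which is the peak's p-value as −log10 multiplied by 10, was 72.79 in precipitation 1 and 117.89 in precipitation 2. Fold enrichment was 3.49 and 3.54.

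The second shared interval in the ZFP36 window, chr19:39926029-39926929, lay 28992 bp from the ZFP36 start site and belonged to other genes. It held the start sites of RPS16, a ribosomal protein gene on the minus strand, and SUPT5H, a transcription elongation factor gene on the plus strand, which are separated by 206 bases. The peaks had 77 and 56 tags, and the summits lay 14 bp apart. Here the precipitations gave nearly the same summit, which was not the case at ZFP36 itself. The remaining 17 of the 19 precipitation 2 peaks in this window had no partner in precipitation 1, which had only these 2 peaks. The strongest of them, chr19:39919821-39922977, had 118 tags, more than either shared peak of that list. Upstream of ZFP36, chr19:39890983-39894043 followed with 94 tags.

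ZFP36L1 (ENSG00000185650, chr14:69254377-69262970, minus strand) had no shared interval in its gene body. In precipitation 1 no peak touched the gene. In precipitation 2 a single peak, chr14:69259730-69260514, with 23 tags and a score of 73.5, held the canonical start site. The other 5 annotated start sites of the gene lay outside the peaks of both lists. The shared interval of the window, chr14:69208412-69209311, lay between genes, 45.1 kb beyond the 3′ end of ZFP36L1, with 69 and 27 tags. It was the weakest in tags of precipitation 1 among the 14, and of precipitation 2 as well. It was just inside the window, 4035 bp from its edge, and the next shared interval, chr14:69184140-69184824, was just outside, 19553 bp from the edge, with 38 and 24 tags.

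The strongest precipitation 1 peak near ZFP36L1 had no partner. It began at position 69223494, downstream of the gene, and had 150 tags and a score of 267.43, and the nearest precipitation 2 peak was 12419 bp away. A peak upstream of the gene, beginning at position 69280632 with 78 tags, ended 40 bp short of a precipitation 2 peak with 41 tags, chr14:69282476-69283849. That pair counted as unshared under the overlap rule, although the peaks nearly touched.

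**Figure D1:**
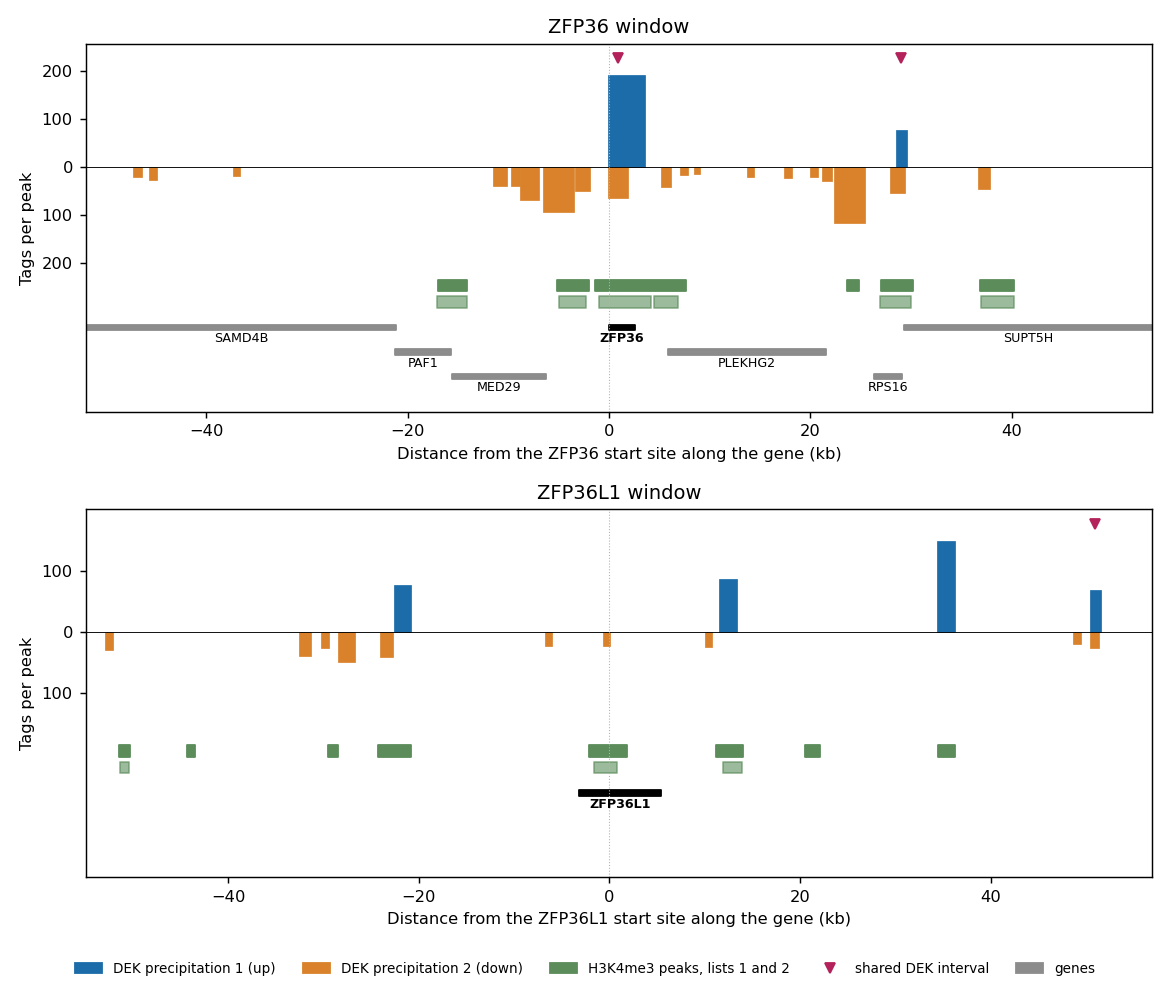
DEK peaks in the ZFP36 (top) and ZFP36L1 (bottom) windows, with the distance from the canonical start site in kb along the gene on the horizontal axis and tags per peak on the vertical axis, precipitation 1 upwards and precipitation 2 downwards. Green bars are H3K4me3 peaks, triangles mark shared intervals and bars at the bottom are genes, and ZFP36 has a triangle over its own start where ZFP36L1 has its single triangle near the right edge.

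ZFP36L2 (ENSG00000152518, chr2:43449541-43453745, minus strand) had the most shared intervals and the peaks with the most tags in the family. Shared intervals covered 65.1% of its gene body. Of all protein-coding genes, 0.278% (56) had at least 50% of the gene body in shared intervals, and ZFP36 and ZFP36L2 were among them. These 2 genes are short, 2566 and 4205 bp, and the share was taken over genes of any length. The interval chr2:43450978-43453585, inside ZFP36L2, had 375 tags in precipitation 1 and 126 in precipitation 2, with scores of 235.89 and 536.75. The next, chr2:43453615-43455506, held the start site of ZFP36L2 and that of LINC01126, a long noncoding RNA gene whose annotated start is 604 bp away, and had 82 tags in precipitation 2. Both came from the same precipitation 1 peak, chr2:43450421-43455981, so the 375 tags are one measurement.

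Over the 3′ end of ZFP36L2 and the sequence beyond it, one wide precipitation 1 peak, chr2:43444655-43449827, had 425 tags, the highest value in the 3 windows. It met 3 separate precipitation 2 peaks beyond the gene, which gave the shared intervals chr2:43444655-43445619, chr2:43446363-43447596 and chr2:43447853-43449357 with 38, 61 and 76 tags in precipitation 2. Summits differed by 664 to 4010 bp across these intervals. Together, the gene and its 3′ flank thus held 5 shared intervals from only 2 precipitation 1 peaks.

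The other 6 intervals lay farther downstream in LINC02580, a long noncoding RNA gene. The nearest, chr2:43440752-43441796, was 12471 bp from the start site of ZFP36L2 and had 76 and 52 tags. The remaining 5 were between 67969 and 119196 bp away. The one at chr2:43358124-43358894 had 282 and 43 tags with summits 4 bp apart, the closest agreement in position among the 14. At chr2:43353861-43355640, with 108 and 83 tags, the summits were 63 bp apart. The scores there were 71.39 and 52.43, where the lowest score of each list was 50. The intervals at chr2:43333996-43335103, chr2:43360389-43362494 and chr2:43385118-43386435 had 184, 205 and 128 tags in precipitation 1 and 47, 76 and 71 in precipitation 2. All 11 shared intervals of the window lay within 121.511 kb, from position 43333996 to 43455506, and their widths summed to 16.332 kb.

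DEK was unevenly placed on the 2 sides of the ZFP36L2 start site. Of the 15 precipitation 1 peaks in the window, 13 were in the 453.746 kb downstream of it along the gene, with a median of 128 tags, and 2 were in the 546.255 kb upstream, with 28 and 23 tags. In precipitation 2, 63 peaks were downstream, with a median of 38 tags, and 41 were upstream, with a median of 21 tags, close to the median of the whole list. The upstream side includes THADA, a large gene. Outside the shared intervals, 7 precipitation 1 peaks had between 23 and 215 tags, and the strongest of them, beginning at position 43188069, was 4479 bp from the nearest precipitation 2 peak.

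**Figure D2:**
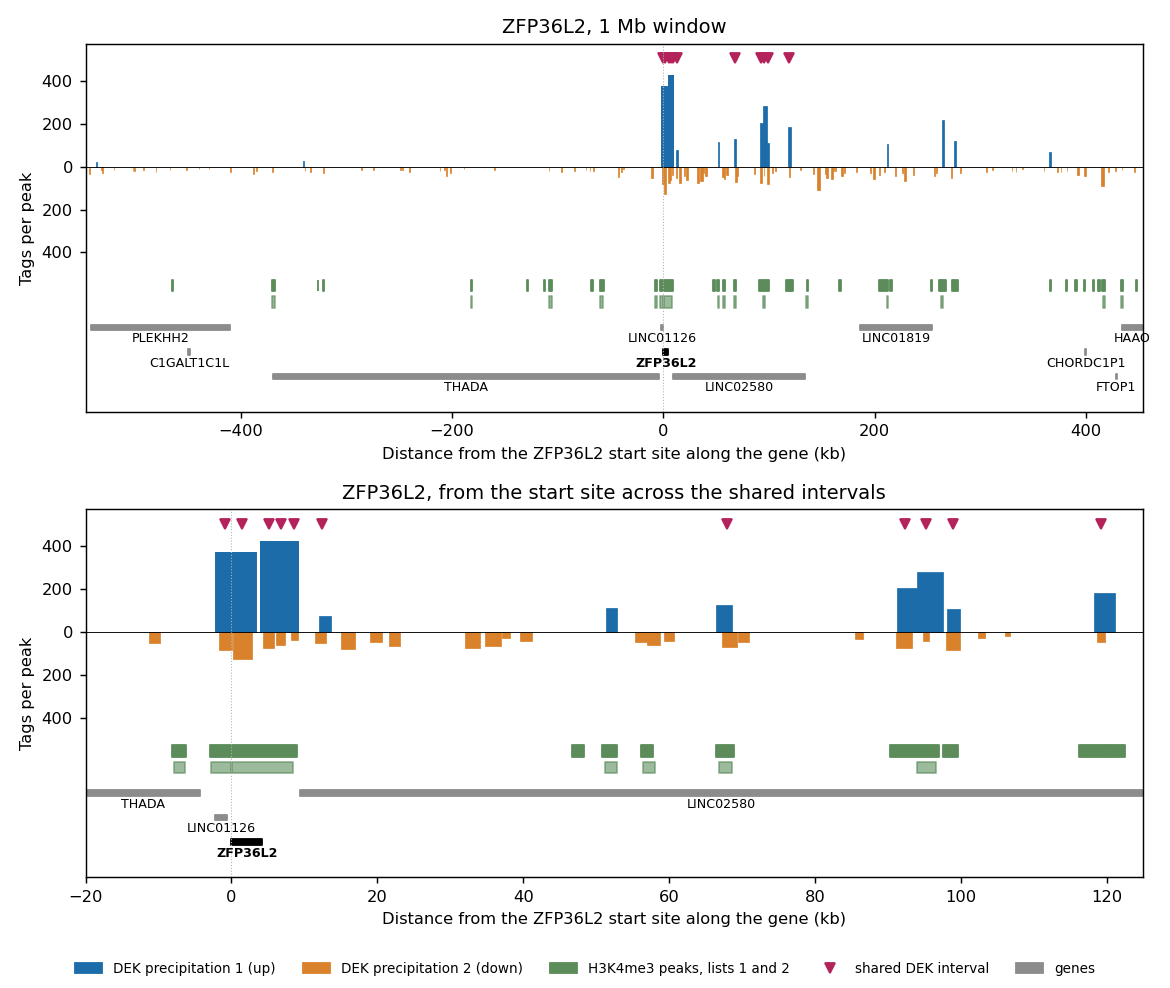
DEK peaks around ZFP36L2, over the 1 Mb window (top) and from the start site across the shared intervals (bottom), with the distance from the start site in kb along the gene on the horizontal axis and tags per peak on the vertical axis, precipitation 1 upwards and precipitation 2 downwards. Green bars are H3K4me3 peaks, triangles are the 11 shared intervals, and the tallest peaks, with 425 and 375 tags, stand at the gene and its 3′ flank.

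Among all 3113 windows of 1 Mb, 15 (0.482%) had at least 11 shared intervals, and 10 had more than the ZFP36L2 window. The median was 1 and the highest was 23. The 11 intervals came from 8 precipitation 1 peaks, some of them split between several intervals. Where each peak had to be covered over at least 50% by the other, 4 were left, all in LINC02580 and none at ZFP36L2 itself. The rank of the window was lower in each list alone: 138 windows had more than its 15 peaks in precipitation 1, and 389 had more than its 104 in precipitation 2. Within the gene body and 50 kb on each side, the count was 6 for ZFP36L2, 2 for ZFP36 and 1 for ZFP36L1, and 0.417%, 9.38% and 28% of protein-coding genes had at least as many. ZFP36 and ZFP36L1 thus had counts that many genes reach. The 6 intervals of ZFP36L2 came from 3 precipitation 1 peaks, and these shares were taken over genes of any length.

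**Figure D3:**
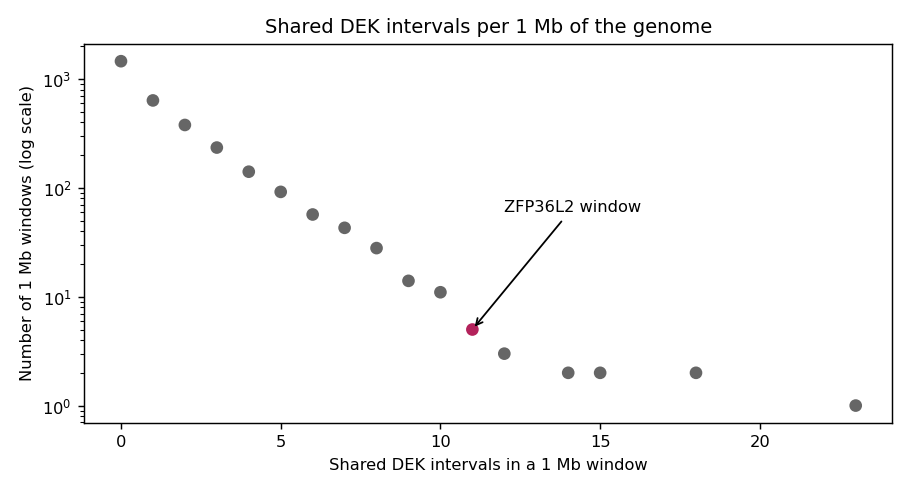
Number of 1 Mb windows of the genome (vertical axis, log scale) by the number of shared DEK intervals they hold (horizontal axis). The ZFP36L2 window, in red, is 1 of 5 windows with 11 intervals, and windows with more reach 23.

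The peaks behind the 14 intervals were rich in tags for their lists. Ranked by tags within each list, they had a median percentile of 96.8 in precipitation 1 and 94.9 in precipitation 2, where the peaks behind all shared intervals had 67.0 and 76.7. They were also wider, with a median width of the shared interval of 1276 bp against 708 bp overall. Per kb of peak, the median was 67.4 and 39.0 tags for the 14 intervals and 48.7 and 33.8 for all shared intervals. In the percentiles and the tags per kb, a peak counts once for each interval it lies behind. The precipitation 1 peaks with 425 and 375 tags thus count several times. The fold enrichment of the peaks behind the 14 was not high beside all peaks of the 2 lists. With each peak counted once, the median was 4.62 and 3.19 for the peaks behind the 14, against 5.57 and 4.58. Unlike the values above, fold enrichment was not compared with the peaks behind all shared intervals. Nor did summits coincide often, with a median gap of 542.5 bp where all shared intervals had 153 bp. The gap was within 100 bp for 3 of 14, where 40.7% of all were. Intervals at ZFP36L2 that came from the same precipitation 1 peak share its summit, so their gaps could not all be small.

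**Figure D4:**
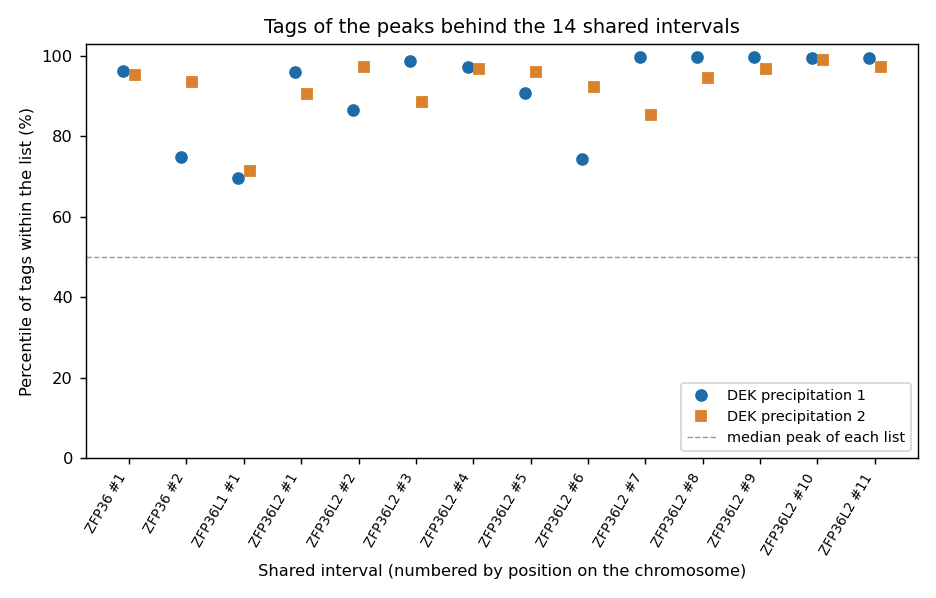
Percentile of tags within its own list (vertical axis, %) of the precipitation 1 and precipitation 2 peak behind each of the 14 shared intervals (horizontal axis, in order along the chromosome). All points lie above the median peak at 50, and the lowest value in each list, 69.6 and 71.5, is that of the interval near ZFP36L1.

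H3K4me3, which the choice of genes did not use, was found at all 3 genes. The lists held 47523 and 29335 peaks and give positions only, with no tags or scores. The first list covered the whole of ZFP36 and of ZFP36L2, and the second covered 100% and 97.8% of them. ZFP36L1 was covered over 45.8% and 27.8%. The widest H3K4me3 peaks of the first list in the ZFP36 and ZFP36L2 windows lay over these genes and were 8965 and 11876 bp wide. The canonical start sites of ZFP36 and ZFP36L1 lay in a peak of both lists, as did those of 49.3% of protein-coding genes. That of ZFP36L2 lay in a peak of the first list, and in the second it fell in a gap of 166 bases between neighbouring peaks.

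Of the precipitation 1 DEK peaks, the first H3K4me3 list overlapped 2 of 2 at ZFP36, 3 of 4 at ZFP36L1 and 12 of 15 in the ZFP36L2 window, where it overlapped 50.2% of the whole list, and the second overlapped 2, 1 and 7, where it overlapped 34% of the list. Of the precipitation 2 peaks, the first overlapped 8 of 19, 4 of 10 and 23 of 104 (10.7% of the list) and the second 6, 1 and 12 (8.05% of the list).

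Both H3K4me3 lists overlapped 9 of the 14 shared DEK intervals, or 64.3%, against 33.7% of all 4453. The 9 were the pair of intervals of the ZFP36 window and 7 of the 11 at ZFP36L2. The 3 intervals that only the first list overlapped were all in LINC02580, and overall 16.2% were of this kind. The interval near ZFP36L1 and that at chr2:43440752-43441796 met neither list, as did 49.7% of all shared intervals. At ZFP36L1 the canonical start site carried H3K4me3 in both lists together with DEK in precipitation 2 alone, and the precipitation 1 peak beginning at position 69246368 also met both lists, so that in this window the shared interval lacked the mark while other DEK peaks had it. Several of the ZFP36L2 intervals share a peak in 1 or more lists, so the 14 are not independent. They also came from windows placed on genes and were wider, with a median of 1276 bp against 708 bp for all shared intervals. The share with H3K4me3 among intervals of like width or distance from a start site was not computed.

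Of the canonical start sites, those of ZFP36 and ZFP36L2 lay inside a shared DEK interval, as did 2.29% of those of all protein-coding genes. Both lay in a precipitation 1 peak (4.44% of all), and all 3, ZFP36L1 included, lay in a precipitation 2 peak (28.7% of all). By the rule that the middle of an interval lies within 1 kb of a start site, ZFP36 and ZFP36L2 had a shared interval and ZFP36L1 had none, where 4.38% of protein-coding genes had one. For precipitation 2 alone all 3 genes passed the rule, as did 56.9% of protein-coding genes. For precipitation 1 alone only ZFP36L2 did (8.45% of all), because the wide ZFP36 peak had its middle 1789 bp from the start site.

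Short motifs in the 301 bases around the middle of each interval were searched on both strands. AGGAA, the core recognised by PU.1 and other ETS factors of myeloid cells, was found in 11 of 14 windows and in 52.0% of all 4434 shared windows searched. GGGCGG was in 5 of 14 (23.6% of all), TGTGGT, bound by RUNX1, in 4 (22.1%), and TGANTCA, bound by AP-1, in 1 (7.17%). CACGTG, bound by USF1, and the CArG box, bound by serum response factor, were in none, as against 5.66% and 1.01% of all. Median GC content was 58.0% in the 14 windows and 53.8% in all shared windows. In the 250 bases before the start sites, AGGAA was matched 3 times in ZFP36L1 and 1 time in each of ZFP36 and ZFP36L2. Those of ZFP36L1 overlap an untranslated region, as given above. Of all promoters, 52.8% held AGGAA.

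The genes that act with the family, or on which it acts, were taken as 6 lists of 122 genes in all. Of these, 16 (13.1%) had a shared DEK interval within 1 kb of a start site, beside 4.38% of all protein-coding genes. In the single lists, 24 (19.7%) had a peak there in precipitation 1, beside 8.45% of all protein-coding genes, and 87 (71.3%) in precipitation 2, beside 56.9%. H3K4me3 lay over the canonical start site of 100 of them (82.0%) in both lists, beside 49.3% of all. Both H3K4me3 lists overlapped 15 of the 16 shared intervals, beside 33.7% of all shared intervals. The 16 were picked for lying near a start site, and the share among all shared intervals near start sites was not computed. The exception was TIAL1. Promoters with this mark thus made up more of the lists than of the genome, and the part of this in the DEK counts was not tested.

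The list of the RNA exosome, which degrades mRNA from the 3′ end, and its cofactors had 4 of 17 genes with a shared interval. They were EXOSC4, with 116 and 47 tags, EXOSC7, with 114 and 36, EXOSC8, with 74 and 49, and EXOSC9, with 52 and 21, all of them subunits of the core ring. Decapping and 5′ decay also had 4, of 20 genes: DCP1A, an activator of the decapping enzyme, had 110 and 120 tags, EDC3 had 63 and 41, the ring subunit LSM5 had 61 and 60, and EIF4ENIF1, a partner of the cap-binding protein eIF4E, had 43 and 15. The deadenylase list had 1 of 20, the poly(A)-binding protein gene PABPC1, with 59 and 106 tags, and no CCR4-NOT subunit gene. That share, 5%, was near the 4.38% of all protein-coding genes. In precipitation 2 alone 14 of the 20 (70%) had a peak, beside 56.9% of all protein-coding genes.

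Of 16 other ARE-binding and related RNA-binding proteins, HNRNPD (70 and 49 tags) and TIAL1 (22 and 17) had a shared interval. HNRNPD encodes AUF1, which binds the same kind of element as the family. Among 15 kinases, phosphatases and 14-3-3 proteins YWHAZ, a 14-3-3 gene, had one, with 88 and 42 tags, and this share of 6.67% was likewise near the 4.38% of all protein-coding genes. Of 34 genes known as targets of the family 4 had one. PIM1, a kinase gene, had 189 and 93 tags, BIRC3, an inhibitor of apoptosis, had 109 and 31, MYC had 75 and 22, and the replication factor gene CDC6 had 69 and 50. With a score of at least 100 required in both precipitations, LSM5 alone remained, with 191.46 and 214.85.

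**Figure D5:**
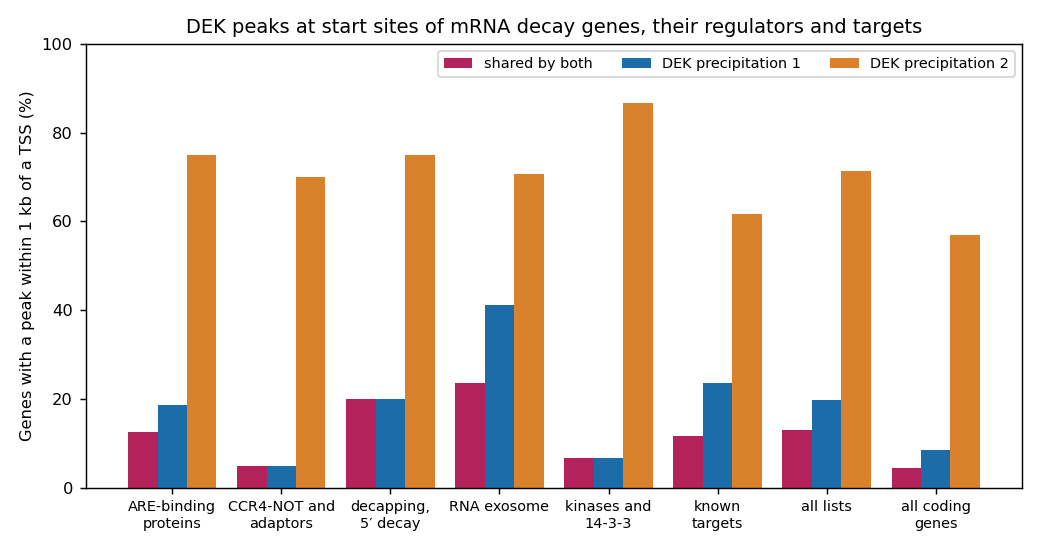
Percent of genes (vertical axis) with a DEK peak whose middle is within 1 kb of a start site, for each list of genes of mRNA decay, its regulators and its targets, all lists together and all protein-coding genes (horizontal axis), as shared intervals and for each precipitation. Shared intervals reach 23.5% of the list of RNA exosome genes and cofactors and 5% of the list of CCR4-NOT, other deadenylases and adaptors, where PABPC1 alone has one. Precipitation 2 has the highest share in every group.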

How the data were processed

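DEK and H3K4me3 ChIP-seq peak lists of U937 cells were analysed, and no input file was used. The authors read paired ends of 100 bp and used Bowtie 2 for alignment to hg19. They ran MACS 1.4.1 at its defaults on each DEK precipitation separately, with non-precipitated chromatin as control. The deposited DEK lists give a count of tags, not normalised for depth, a score, which is −log10 of the MACS p-value multiplied by 10, a fold enrichment over the local background, which is a ratio, and a false discovery rate in percent. The deposited H3K4me3 lists give only chromosome, start and end, and how these peaks were called is not given in the sources used here. The deposited DEK and H3K4me3 positions were used as they stand.

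Peaks were intersected with a minimum overlap of 1 bp. Genes were those of GENCODE release 44 on GRCh37. The canonical start site was used, or the outermost for 282 protein-coding genes without that mark, and the call within 1 kb used every annotated start site. The members, the ZFP36L2 window and the gene lists were chosen with earlier results of these data known. No test was made, since the rule used the peaks. The labels do not say whether precipitations came from separate cultures. Named list genes are those with a shared interval within 1 kb. Tags are reads and not independent molecules. The tools were pysam 0.24.0, pandas 2.3.3, NumPy 2.4.6 and Matplotlib 3.10.9 under Python 3.11.15, and 6 of 6 checks on simulated intervals passed. Alternatives changed the overlap, score, window, distance and precipitations used.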

Additional observations from a re-analysis of the deposited data

How the results depend on the processing

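Of 27 alternative settings, 11 gave a count within 1.5 times the reported one and 16 moved it further. With a score of at least 100 in both precipitations, the shared intervals fell to 0 at ZFP36, 0 at ZFP36L1 and 4 at ZFP36L2, those with H3K4me3 in both lists fell from 9 to 4, and the genes of the 6 lists with a shared interval at a start site from 16 to 1 (0.739% of protein-coding genes). Requiring each peak to be covered over at least 50% by the other left 4 intervals in the ZFP36L2 window, all of them in LINC02580. None at the gene and its 3′ flank was left, where all 4 that passed the score filter lay, so no interval of that window passed both filters. Windows of 10 kb on each side gave 1 at ZFP36 and 0 at ZFP36L1, 500 kb gave 2 at ZFP36L1, and 50 kb gave 6 at ZFP36L2. The outermost start site alone left 9 of these genes (2.80% of protein-coding genes). With 1 DEK precipitation left out, peaks of the other ranged from 2 to 19 at ZFP36, 4 to 10 at ZFP36L1 and 15 to 104 at ZFP36L2, and list genes with a peak at a start site from 24 to 87. With 1 H3K4me3 list left out, the count of intervals with H3K4me3 was 9 to 12. Reading H3K4me3 starts as counted from 0, an alternative added after seeing the data, gave 9. No paired analysis was possible because no result came from a test. Peak lists hold no region under the caller's threshold, so a start site without a peak is not shown to lack DEK.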
